A study of Homo sapiens with 2 samples.

Results

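The S100 genes described here are S100A4, S100A6, S100A8, S100A9, S100A10, S100A11, S100A13, S100A14, S100A16 and S100P. They were taken by gene name from the deposited table, which listed all 10 of them among 18781 genes. Both libraries came from wild-type T47D cells, an established human line of luminal breast cancer grown in DMEM with fetal bovine serum. One library was made from RNA precipitated with an anti-IMP1 antibody, and the other from RNA precipitated with normal IgG as the control, with 1 library per condition. IMP1 is an RNA-binding protein that carries mRNAs to the leading edge of cells, and the series asked which RNAs stay with it on the beads. A level is given in FPKM, which is the number of fragments scaled by the length of a transcript and by the size of the library. With 1 library each, no difference below has a replicate check, no test was run, and the number of reads behind each value is unknown.

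S100 proteins are small calcium-binding proteins with a pair of EF-hand loops, and most work as dimers. Calcium opens a surface on the dimer that grips a partner such as an annexin or a myosin heavy chain, and some S100 proteins are also released from cells and act on receptors. Several are studied in breast cancer for their part in cell movement, S100A4 above all. Nearly all S100 genes lie together on the long arm of chromosome 1, and S100P lies on chromosome 4.

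Of the 10 members, 6 were at least 2-fold lower with the IMP1 antibody and 0 at least 2-fold higher. Of all genes listed, 39.9% were at least 2-fold higher and 29.9% at least 2-fold lower by the same ratio, that of FPKM + 0.1 in both libraries. Of the 6 lower members, S100A8 and S100A14 were listed at 0 in the IMP1 library, and the others were S100P, S100A4, S100A11 and S100A6. S100A10, S100A13, S100A16 and S100A9 differed by less than 2-fold. Of the 8 members above 0 in both libraries, 0 were past 2-fold on the higher side and 4 on the lower side, where 17.5% and 43.8% of all 10309 such genes were. Their median log2 ratio was -0.73 against -0.72 over all such genes. At 1 FPKM or more in both libraries there were 7 members, 0 higher and 4 lower, where 11.5% of 6909 genes were higher and 44.0% lower. The counts depend on the scale of both libraries, whose FPKM values summed to 353885 with the IMP1 antibody and 1298363 with IgG. When the IMP1 values were rescaled to the same sum, 4 members were at least 2-fold higher and 2 at least 2-fold lower, and the latter were S100A8 and S100A14. On that scale 63.7% of all genes were at least 2-fold higher and 13% at least 2-fold lower.

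**Figure D1:**
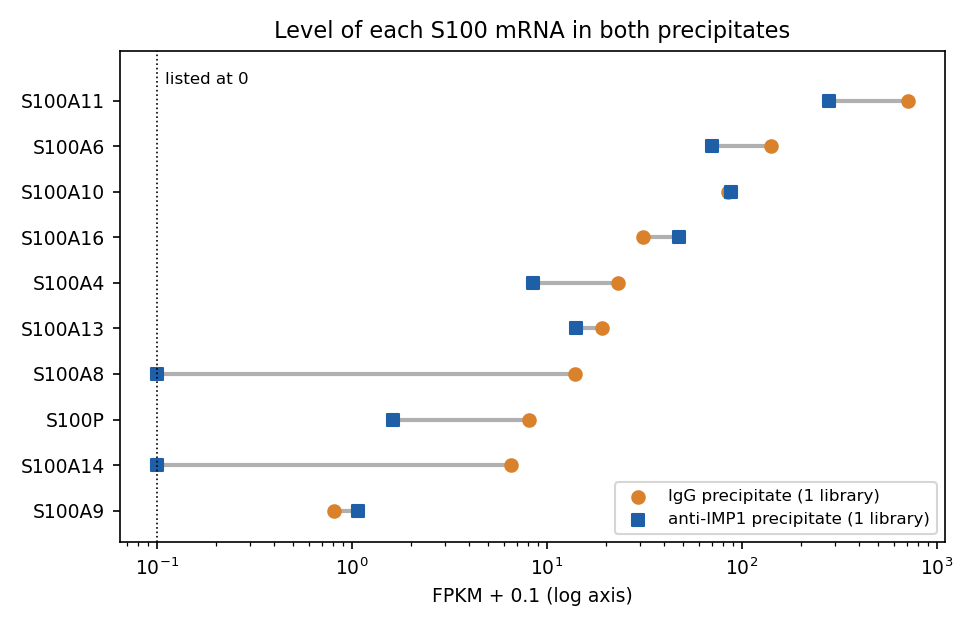
Level of each S100 mRNA as FPKM + 0.1 on a log axis, with 1 point for the IgG library and 1 for the anti-IMP1 library and a line between them. S100A8 and S100A14 lie on the dotted line of genes listed at 0 with the IMP1 antibody, and S100A11 is the highest member in both libraries.

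S100A11, a partner of annexin A1 that works in membrane repair and in keratinocyte growth, was the most abundant member. It had 278 FPKM with the IMP1 antibody against 707 FPKM with IgG, for a log2 ratio of -1.34. It made up 54.7% of the family's summed FPKM with the IMP1 antibody and 68.3% with IgG, and it was the gene of rank 92 from the top of the IMP1 library and of rank 58 from the top of the IgG library. By gene symbol, RefSeq names 10 pseudogenes of S100A11 and none of another S100A member, while S100P was outside that search. How reads shared with the pseudogenes were assigned is not given in the sources used here.

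S100A10, which lies beside S100A11 and forms a complex with annexin A2 at the plasma membrane, had nearly equal values. It had 88.1 FPKM with the IMP1 antibody against 84.4 FPKM with IgG, for a log2 ratio of 0.06. S100A11 was 3.16 times the level of S100A10 in the IMP1 library and 8.37 times with IgG, a ratio that no rescaling of a library can alter. The neighbours therefore differed by a factor of 2.65 between the precipitates.

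S100A6, or calcyclin, which is abundant in dividing epithelial cells and binds the protein CACYBP, had 70.3 FPKM with the IMP1 antibody and 141 FPKM with IgG. Its log2 ratio of -1.0 sat on the 2-fold line, and with a pseudocount of 1 it was inside that line. S100A16, a widely expressed member, was the one with the largest ratio, at 47.3 FPKM with the IMP1 antibody against 31.1 FPKM with IgG, for a log2 ratio of 0.61. S100A6, S100A10, S100A11 and S100A16 were the highest members in either library, above 97% of all genes in the IMP1 library and above 93% with IgG.

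S100A4, or metastasin, which binds non-muscle myosin and is tied to cell migration, had 8.33 FPKM with the IMP1 antibody against 23.0 FPKM with IgG, for a log2 ratio of -1.46. S100A13, which takes part in the release of growth factors that lack a signal peptide, had 13.9 and 19.2 FPKM, for a log2 ratio of -0.46. S100P, a member found in several carcinomas that binds ezrin, had 1.52 FPKM with the IMP1 antibody against 7.97 FPKM with IgG, for a log2 ratio of -2.31. It had the lowest ratio of the members above 0 in both libraries, and its IMP1 value remained under its IgG value on every scale tried, with a log2 ratio of -0.50 at the least. S100A16 was 31.1 times the level of S100P in the IMP1 library and 3.90 times with IgG.

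S100A8 and S100A9 form the heterodimer calprotectin, which neutrophils and inflamed epithelia make in large amounts. S100A8 was listed at 0 in the IMP1 library and had 13.8 FPKM with IgG. S100A9 was under 1 FPKM in both, with 0.974 FPKM with the IMP1 antibody against 0.711 FPKM with IgG, and its log2 ratio of 0.40 is the median of all genes. With IgG, S100A8 was 19.4 times the level of S100A9. S100A14, an epithelial member, was likewise listed at 0 with the IMP1 antibody and had 6.40 FPKM with IgG. Among 5528 genes at 5 FPKM or more with IgG, 3.60% were listed at 0 in the IMP1 library. An exact 0 in a table without read counts can be a failed estimate. S100A8 and S100A14 are counted among the lower members, but the size of their ratio depends on the added 0.1 and is not given.

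**Figure D2:**
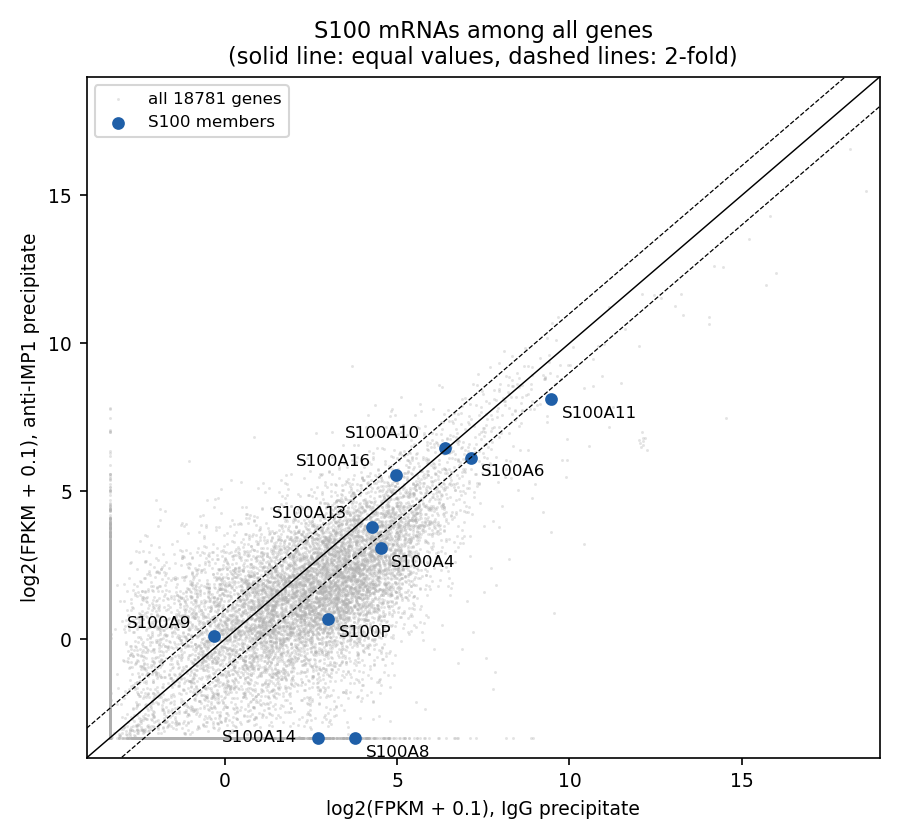
Each point is a gene, placed by log2(FPKM + 0.1) in the IgG library on the x axis and in the anti-IMP1 library on the y axis, with the S100 members in blue among all 18781 genes in grey. S100A10, S100A13, S100A16 and S100A9 lie between the dashed 2-fold lines, S100A6 lies on the lower one, and S100A8 and S100A14 lie on the row of genes listed at 0 in the IMP1 library.

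Rescaling a library shifts the 8 members above 0 in both libraries together, so it bears on their direction and hardly on their order, while a listed 0 stays 0 by construction. By log2 ratio, the 8 members above 0 in both libraries ran from S100A16 through S100A9, S100A10, S100A13, S100A6, S100A11 and S100A4 to S100P on the deposited scale. All 3 rescalings of the IMP1 values moved them up. The median-gene rescaling made the median gene equal in both libraries among genes at 1 FPKM or more in both. Over all genes listed, the median log2 ratio was then 0.96, against 0.40 as deposited. With this rescaling, S100A16 had a log2 ratio of 1.40, S100A9 of 1.14, S100A10 of 0.86 and S100P of -1.56. On that scale 2 members were at least 2-fold higher and 3 at least 2-fold lower, where 49.3% and 21.3% of all genes were. Rescaled to the same sum over all genes, S100A11 was at 0.53, S100A4 at 0.41 and S100A6 at 0.87, so that these 3 mRNAs changed direction. S100A13 did so on all 3 rescalings, from -0.46 as deposited to 0.33 at the median gene, 1.41 at the same sum and 0.08 at the same sum without the 50 highest genes. The family made up 0.144% of the summed FPKM in the IMP1 library and 0.0796% with IgG, or 0.231% and 0.168% with mitochondrial rRNA left out of the sum, while its summed level was 509 and 1034 FPKM. Which scale is closest to the amount of RNA on the beads cannot be settled from these values.

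**Figure D3:**
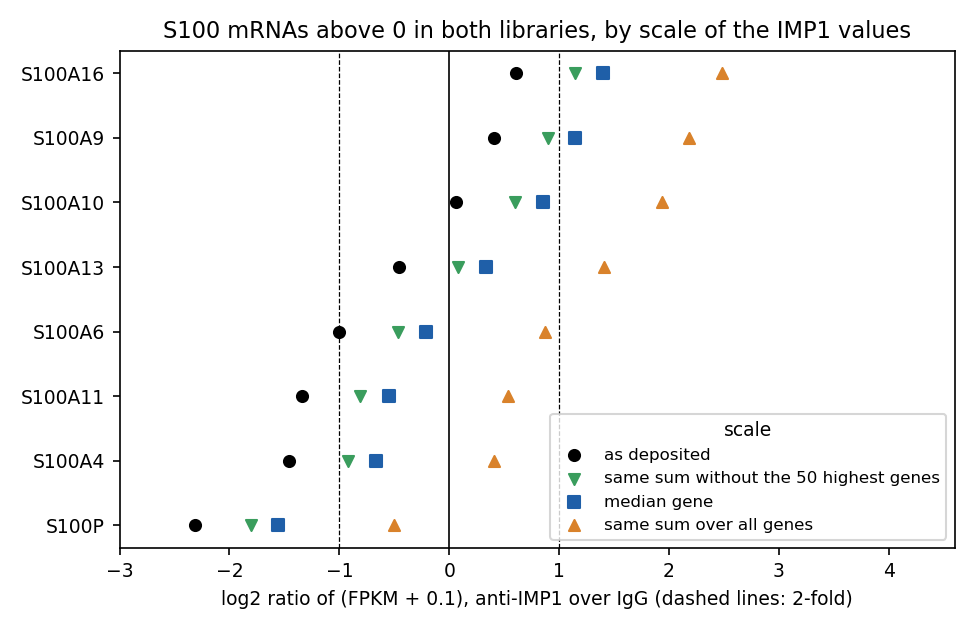
Log2 ratio of (FPKM + 0.1), anti-IMP1 over IgG, of the 8 members above 0 in both libraries, on the deposited scale and on 3 rescaled ones. S100P stays below 0 on all 4 scales, S100A13 is below 0 only as deposited, S100A4, S100A11 and S100A6 pass 0 only when the libraries are set to the same sum, and the order from top to bottom is the same on each.

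Neighbouring members on chromosome 1 had unlike ratios in some cases and closer ones in others. Coordinates are the hg19 spans of the deposited table. Genes can share a span there, so a span need not be the extent of a single gene. S100A10 (151955391 to 151966866) and S100A11 (151967007 to 152020383) have adjacent spans and had log2 ratios of 0.06 and -1.34. S100A9 (153330330 to 153333503) and S100A8 (153362508 to 153363664) follow, then S100A6 (153506079 to 153508720) and S100A4 (153516089 to 153522612). The log2 ratios of S100A6 and S100A4 were closer, at -1.0 and -1.46. S100A16 (153579362 to 153585621), the member with the largest ratio, is next to S100A14 (153586731 to 153589462), which was listed at 0 with the IMP1 antibody. The deposited table gives S100A13 and S100A1 the same span (153591263 to 153618782), and it gives S100A3 and S100A4 a shared span as well. How reads were divided within such a span was not tested, and the strand of the reads is not given in the sources used here. On chromosome 4, S100P runs from 6694796 to 6698897.

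The table listed 4 further S100 genes, for 14 S100 genes in all, and 7 more of the family were not analysed here. S100A1, best known from heart muscle, had 2.60 FPKM with the IMP1 antibody against 14.6 FPKM with IgG, for a log2 ratio of -2.45. Within the same span S100A13 was 5.36 times the level of S100A1 in the IMP1 library and 1.31 times with IgG. S100A2, a member of basal epithelia, had 0.751 FPKM, S100A5 had 0.168 FPKM and S100A3, a protein of the hair cuticle, had 0.164 FPKM in the IMP1 library, and all 3 were listed at 0 with IgG. The low S100 mRNAs thus differed in which library listed them at 0. Of all 18781 genes, 1202 were listed at 0 in the IMP1 library and 7270 with IgG, so a low gene at 0 with IgG was common. Of the 11 other genes between S100A10 and S100A13, the 4 with the highest summed levels were CHTOP, SPRR2C, KPRP and the clone-named RP1-178F15.5. CHTOP had 6.36 and 4.91 FPKM. SPRR2C had 2.21 FPKM in the IMP1 library and was listed at 0 with IgG, KPRP was listed at 0 and had 1.29 FPKM, and RP1-178F15.5 had 0.529 FPKM and was listed at 0. The S100-fused genes of the skin barrier, which carry an S100 domain in a much longer protein, were near 0 in both libraries, with no value above 0.353 FPKM for TCHH, FLG2, HRNR or FLG.

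**Figure D4:**
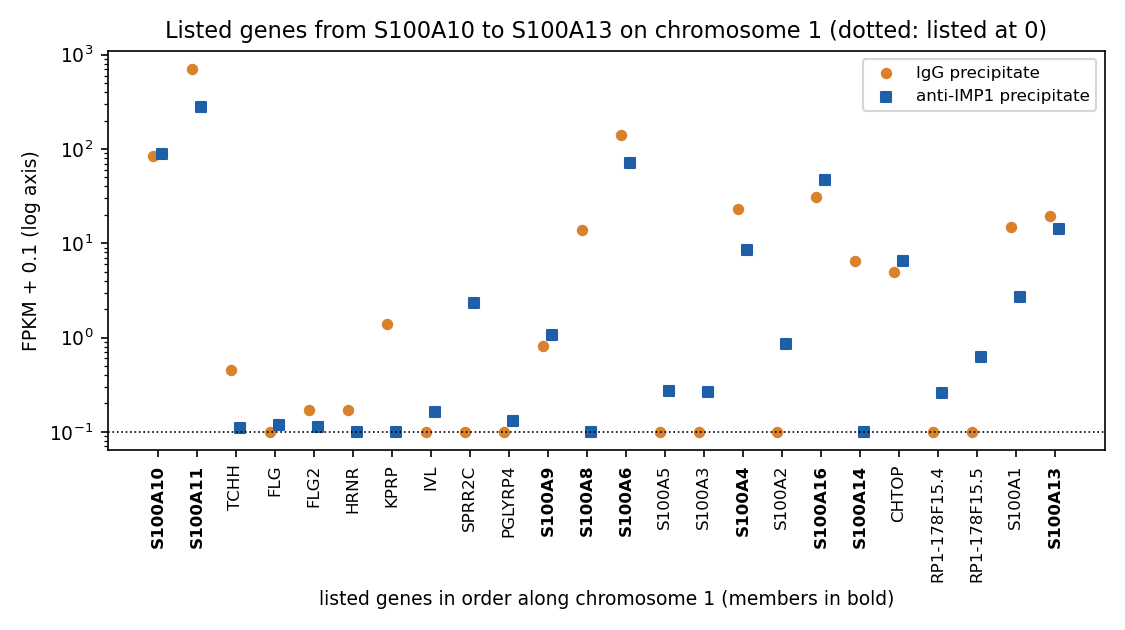
FPKM + 0.1 on a log axis of every listed gene from S100A10 to S100A13 in order along chromosome 1, genes with the same span in alphabetical order, with members in bold. The high members S100A6 and S100A16 stand between genes that are listed at 0 in a library.

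A sequence feature was shared by most of the members. A TATA box, the element that sets the start site of many strongly regulated genes, was searched as TATAA on the sense strand in the 50 bases before each RefSeq start. With any start of a gene counted, it was found for 7 of the 10 members. The share was 5.96% of the 27305 genes with a promoter sequence, or 7.61% with either strand. By start, 7 of the 15 windows of the members held it, against 4.74% of all 35116 windows. The members without it were S100A10, S100A11 and S100A16, which were among the 4 most abundant. The 7 windows are shown because the motif lies at nearly the same place in each, from 28 to 31 bases before the start. The letters of the motif are in capitals, coordinates are those of GRCh38.p14 and sequences are from RefSeq:
S100A4, chr1:153545820-153545849, minus strand: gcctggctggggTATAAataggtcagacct
S100A6, chr1:153536004-153536033, minus strand: ggcaccgaccgcTATAAggccagtcggact
S100A8, chr1:153391085-153391114, minus strand: aagcctaaccgcTATAAaaaggagctgcct
S100A9, chr1:153357813-153357842, plus strand: tcaggagctgccTATAAatgccgagcctgc
S100A13, chr1:153627517-153627546, minus strand: ttccccgctgctTATAAacctcagccctga
S100A14, chr1:153616337-153616366, minus strand: ccttcccccaggTATAAgagctgagctcag
S100P, chr4:6693838-6693867, plus strand: atgaggctgcctTATAAagcaccaagaggc

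Of the 7 genes with the motif, S100A8 and S100A14 were listed at 0 with the IMP1 antibody, S100A9 had a log2 ratio of 0.40, and the others lay between -0.46 (S100A13) and -2.31 (S100P) on the deposited scale. The 3 without it ran from S100A16 at 0.61 to S100A11 at -1.34. A motif match is a description of the letters and says nothing of binding by any factor.

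Genes of S100 partners and receptors were read beside their S100 member. Of 16 such genes, 2 were at least 2-fold higher with the IMP1 antibody and 6 at least 2-fold lower, which became 9 and 3 after rescaling to the same sum. Their median log2 ratio of -0.38 became 1.49 on that scale, against 0.40 and 1.87 over all genes. Of all genes, 39.9% were at least 2-fold higher and 29.9% lower as deposited, and 63.7% and 13% after that rescaling. ANXA2, the annexin held by S100A10, had 123 FPKM with the IMP1 antibody against 167 FPKM with IgG. S100A10 was 0.714 times the level of ANXA2 in the IMP1 library and 0.506 times with IgG. AHNAK, a giant scaffold that binds the same complex, had 4.54 and 8.80 FPKM. The S100A11 partner ANXA1 was listed at 0 in the IMP1 library and had 8.83 FPKM with IgG, while ANXA6, another annexin that S100A11 binds, had 13.2 and 16.7 FPKM. These annexins thus ranged from differences under 2-fold to a listed 0 on the deposited scale. After rescaling to the same sum, ANXA2 and ANXA6 were higher with the IMP1 antibody, at log2 ratios of 1.44 and 1.53.

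For S100A6, its partner CACYBP had 36.9 FPKM with the IMP1 antibody against 26.4 FPKM with IgG, so that S100A6 was 1.90 times CACYBP in one and 5.32 times in the other. The other S100A6 partners ANXA11 and SUGT1 had 18.9 and 20.5 FPKM, and 4.18 and 10.5 FPKM. The S100A4 targets were lower with the IMP1 antibody on the deposited scale, and after rescaling to the same sum MYH9 remained so while PPFIBP1 and S100A4 did not. MYH9, the heavy chain of non-muscle myosin, had 2.93 and 14.6 FPKM, and PPFIBP1, a liprin, had 2.20 and 4.91 FPKM. The genes around S100P went several ways. EZR, which encodes ezrin, had 7.40 and 4.04 FPKM, IQGAP1, a scaffold of the cell cortex, had 4.49 and 35.4 FPKM, and S100PBP had 2.74 and 2.67 FPKM. SYT1, which is released together with S100A13, had 1.28 FPKM and was listed at 0 with IgG. Of the receptors for secreted S100 proteins, BSG had 113 and 105 FPKM, AGER had 0.282 FPKM and was listed at 0 with IgG, and TLR4 was listed at 0 and had 0.526 FPKM.

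Other EF-hand proteins gave a background for the calcium-binding fold. Of 19 listed, 4 were at least 2-fold higher and 9 at least 2-fold lower, which became 10 and 0 after rescaling to the same sum. Their median log2 ratio was -0.71, and 1.16 on that scale, against 0.40 and 1.87 over all genes. Of all genes, 39.9% were at least 2-fold higher and 29.9% lower as deposited, and 63.7% and 13% on that scale. The myosin light chain MYL6 had 314 and 303 FPKM and MYL12B had 51.0 and 73.4 FPKM. CALM2, a gene of the calcium sensor calmodulin, had 39.6 and 245 FPKM. It was lower with the IMP1 antibody on the deposited scale and after rescaling to the same sum, while MYL6 was as nearly equal as S100A10 on the deposited scale and higher after that rescaling.

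The genes with levels most like those of S100A16 and S100P were found by their distance in log2(FPKM + 0.1). Over the 2 libraries, the 3 genes nearest to S100A16 were NDUFA11, WDR83OS and SLC25A5, with 45.9, 47.3 and 49.9 FPKM in the IMP1 library and 32.1, 29.4 and 30.1 FPKM with IgG. Those nearest to S100P were TRAPPC2, NCAPG and TOM1, with 1.50, 1.51 and 1.57 FPKM in the IMP1 library and 8.01, 8.14 and 7.89 FPKM with IgG.

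Since several S100 mRNAs also mark other cells, marker lists were read beside them. Of 12 luminal markers, 8 were at least 2-fold higher with the IMP1 antibody and 0 lower, and all 12 were higher after rescaling to the same sum, with 595 and 207 FPKM for AGR2, 345 and 226 for XBP1, 371 and 78.8 for KRT19 and 162 and 76.8 for KRT8. Of all genes, 39.9% were at least 2-fold higher as deposited and 63.7% after that rescaling. The luminal markers had a summed level of 1828 FPKM with the IMP1 antibody against 746 FPKM with IgG, where TFF1 and TFF3 were listed at 0. The luminal keratins and AGR2 were thus abundant in both libraries, and they differed in the opposite direction from S100P on every scale tried. Other luminal markers were nearer to equal as deposited, with log2 ratios of -0.19 for EPCAM, 0.09 for ESR1 and 0.20 for FOXA1. The 11 mesenchymal markers were at least 2-fold lower in every case and on every scale tried, 6 of them being listed at 0 with the IMP1 antibody, with a summed level of 2.64 FPKM with the IMP1 antibody against 234 FPKM with IgG. FN1 had 1.30 and 79.7 FPKM, DCN was listed at 0 and had 37.5 FPKM, COL1A1 had 0.791 and 24.4 FPKM, and LUM was listed at 0 and had 22.0 FPKM. S100A4 and S100A6 are also expressed by fibroblasts, and whether RNA of such cells took part in their IgG values was not tested. Both libraries are precipitates from T47D lysates. Recovery on the beads, RNA per cell and the number of cells of a type cannot be told apart in them.

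S100A8 was listed at 0 with the IMP1 antibody, and the listed genes of the NF-kB and acute-phase response were lower there than with IgG. That list was chosen with earlier results of these data known, so its direction is no independent result. Not all of its genes were low, and NFKBIA had 23.9 FPKM with the IMP1 antibody against 97.8 FPKM with IgG. Of the 14 genes chosen for that response, 5 were not analysed here. The 9 listed genes were all at least 2-fold lower, 7 of them after rescaling to the same sum, with summed levels of 36.8 and 1687 FPKM. LCN2 had 1.77 and 746 FPKM, BIRC3 had 1.08 and 147 FPKM, and SAA1 and SAA2, near-identical genes that may share reads, were listed at 0 and had 284 and 158 FPKM with IgG. The part of such a response in the S100A8 value was not tested. S100A9, its partner in calprotectin, was not lower with the IMP1 antibody, at 0.974 FPKM against 0.711 FPKM with IgG. Markers of myeloid cells, the richest source of S100A8, were close to 0. The 6 listed summed to 0.629 FPKM with the IMP1 antibody against 1.82 FPKM with IgG, with 0.926 FPKM for CXCR2 and 0.825 FPKM for ELANE at the most, and FCGR3B and CD14 were listed at 0 with IgG. The other 8 were not analysed here. Of the keratinocyte markers, 4 of 13 were analysed, with summed levels of 1.76 and 10.5 FPKM. KRT10 had 1.66 and 10.2 FPKM, KRT14 was listed at 0 and had 0.294 FPKM, and IVL and TP63 were listed at 0 with IgG.

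**Figure D5:**
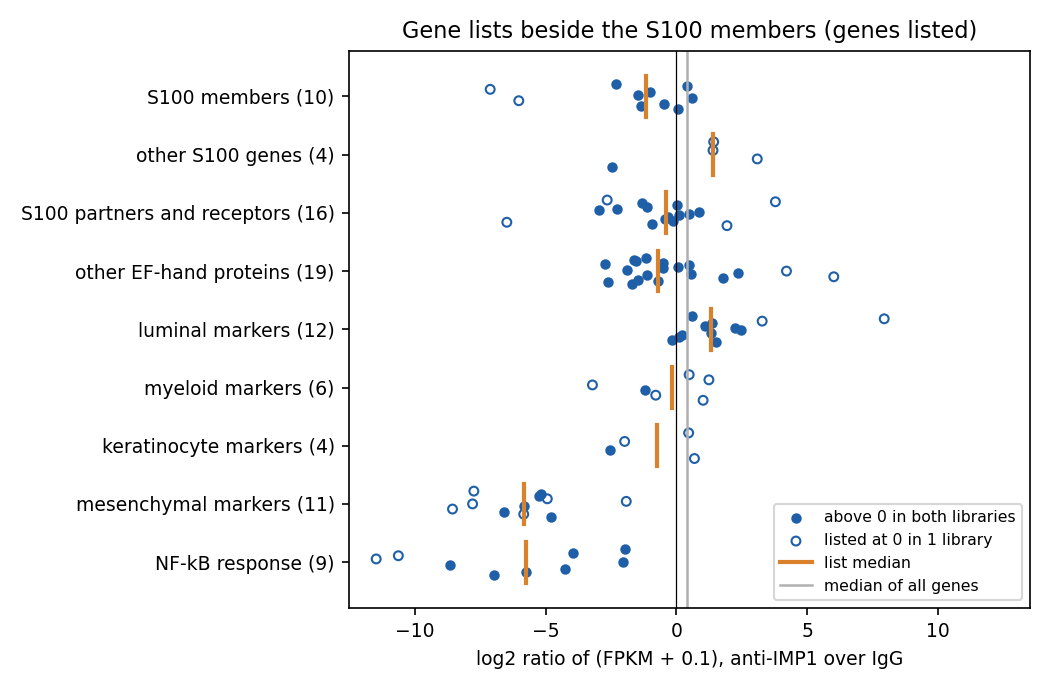
Log2 ratio of (FPKM + 0.1), anti-IMP1 over IgG, of each listed gene of 9 lists, with open circles for genes listed at 0 in 1 library, an orange bar for the median of each list and a grey line for the median of all genes at 0.40. The S100 members above 0 in both libraries lie between -2.31 (S100P) and 0.61 (S100A16), and the places of the open circles depend on the added 0.1.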

How the data were processed

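T47D lysates were incubated with protein A beads carrying anti-IMP1 antibody or normal IgG, the precipitated RNA was extracted with TRIzol, and a sequencing company sequenced it. The labels and the study's methods give different incubation times. Per condition, 1 library was deposited as FPKM values of genes, made by the authors on genome build hg19 per the labels. The aligner, the counting software and the annotation are not given in the sources used here. The authors' fold changes, p-values and q-values, and the lists chosen by them, were not used.

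Exact zeros, deposited as 1e-05, were set to 0, and 1 was added to each locus start, which was taken to count from 0. The log2 ratio of FPKM + 0.1, anti-IMP1 over IgG, was taken over all 18781 genes, and those past 2-fold were counted. It understates the change of low genes. No test was run, and depth is unknown. Members and gene lists were chosen with earlier results of these data known. Named genes were all members, all other listed S100 genes and partners, up to 4 genes of each other list with the highest summed FPKM (1 of them is not reported here), and the 3 genes nearest in both log2 values to the members with the largest and smallest ratio at 1 FPKM or more in both libraries. Markers listed at 0, and EPCAM, ESR1, FOXA1 and NFKBIA, were named after their values were seen. Promoter sequences are from RefSeq (GRCh38.p14). Alternatives were other pseudocounts, filters, rescalings and a 4-fold threshold. The counting was tested on simulated data. Python 3.11.15, numpy 2.4.6, pandas 2.3.3 and matplotlib 3.10.9 were used.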

Additional observations from a re-analysis of the deposited data

How the results depend on the processing

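No paired analysis was possible because each condition has 1 library and no test was run, so no replicate was left out either. The number of S100 members at least 2-fold higher, 0, was 2 after rescaling to the median gene, 4 after rescaling to the same sum and 1 after rescaling to the same sum without the 50 highest genes. The number at least 2-fold lower, 6, was 3, 2 and 3 under these, and 3 at a threshold of 4-fold. Those past 4-fold were S100A8, S100A14 and S100P, and 17.3% of all genes were at least 4-fold lower. The median log2 ratio of the members, -1.17, was -0.38, 0.70 and -0.64 on these scales, and -1.0 over the 7 members at 1 FPKM or more in both libraries. Of all genes, 39.9% higher and 29.9% lower became 49.3% and 21.3%, 63.7% and 13%, and 45.9% and 23.9% on these scales, and 17.4% and 22.4% with a pseudocount of 1. After rescaling to the same sum, S100A4 (0.41), S100A6 (0.87) and S100A11 (0.53) reversed, as the log2 shift of 1.88 sets, and S100A13, within 2-fold at -0.46, was above 0 on all 3 rescalings (0.33, 1.41 and 0.08). S100A8 and S100A14, at 0 in the IMP1 library, cannot change sign under any rescaling. The median of the other S100 genes, 1.41, was -2.45 at 1 FPKM or more in both libraries, where S100A1 alone was left. These shifts follow from the construction of each scale. The remaining alternatives left the numbers of members past 2-fold within 1.5 times.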
